A study of Mus musculus with 3 samples.

Results

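The transcript of p53 (Trp53) and those of 9 genes that p53 is known to switch on were followed in mouse aortic endothelial cells exposed to an oxidant. The 10 genes (Trp53, Mdm2, Cdkn1a, Btg2, Ccng1, Gadd45a, Trp53inp1, Phlda3, Sesn1 and Gdf15) were chosen by symbol, with earlier results of these data known, and all 10 were found among the 18287 genes listed in the deposited tables of both comparisons with control. Each group is 1 library of polyadenylated RNA from purchased aortic endothelial cells. The groups are control cells, cells given glucose oxidase at 5 mU/mL for 30 min, and cells given glucose oxidase (5 mU/mL, 30 min) together with ethyl-2-hydroxybenzylamine (Et2HOBA) at 0.2 mM for 24 h. Glucose oxidase generates hydrogen peroxide from glucose, and Et2HOBA was used to scavenge the adduct-forming lipid aldehydes called isolevuglandins. The labels do not give the time between exposure and RNA harvest, the order of the 2 agents or a vehicle for the control. A group with Et2HOBA alone was not analysed here.

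p53 is a transcription factor that is kept low in resting cells because the ubiquitin ligase MDM2 marks it for destruction. DNA damage and oxidant stress release it from MDM2, so p53 activity changes mainly through protein stability and much less through the Trp53 transcript. Active p53 raises genes for cell-cycle arrest, DNA repair, antioxidant defence and cell death, and also raises Mdm2, which closes a negative feedback loop. Several of these targets, among them Gadd45a, Gdf15, Cdkn1a and Btg2, are also known to respond to other stress or growth signals.

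p53 binds DNA at a pair of 10-base half-sites, each with a conserved C and G in its core. The RefSeq promoter windows (GRCm38.p6, 250 bases before to 50 bases after a start site) covered 9 of the 10 genes with 12 windows. Pairs of adjacent half-sites were searched with no spacer and at most 2 mismatches to the p53 consensus, which reads alike on both strands. Such a 20-base site was present in the windows of 2 genes, Cdkn1a and Ccng1, each with 1 mismatch. For Cdkn1a it lay in the first of 2 windows, and the start given below is that of this window. The second window of Cdkn1a held no match. Counted per window, 0.326% of all 32851 windows searched held such a site. The 2 sites are shown because no other window of the set held such a match. The capitals mark the C and G of each half-site.
Cdkn1a, chr17:29090928-29090947, plus strand, first base 51 bases before the start: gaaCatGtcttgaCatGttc
Ccng1, chr11:40755462-40755481, minus strand, first base 195 bases before the start: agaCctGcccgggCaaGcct

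Single half-sites without mismatch were found in 6 of the genes, each in only 1 of its windows. The 9 genes covered have 12 windows, and 8.36% of all windows held such a match. Besides Cdkn1a and Ccng1 the genes were Trp53, Mdm2, Sesn1 and Gadd45a.
Trp53, chr11:69580284-69580293, plus strand: ggaCttGccc
Mdm2, chr10:117710935-117710944, minus strand: gaaCttGcct
Sesn1, second window, chr10:41887266-41887275, plus strand: aagCttGttt
Gadd45a, chr6:67037438-67037447, minus strand: gggCtaGccc
The windows of Btg2, Phlda3 and Gdf15 held no half-site match. The element TGATGNAA, bound by ATF and CCAAT-enhancer-binding proteins and searched on both strands, occurred in 0 of the 12 windows and in 3.97% of all windows. A match is a description of the sequence only. Sites farther from the start, such as those in introns, were not searched.

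The libraries held 35005089 to 40212212 reads over the listed genes. Since each group is 1 library, replicate spread is unknown and conditions could not be tested against each other. Intervals are exact binomial 95% intervals (Clopper-Pearson) on the reads of both libraries compared, and they cover counting error only. Counts were divided by size factors for library depth. A gene was counted as past the limit where its log2 ratio, taken on normalized counts plus 10, reached 1 in size. Processed pseudogenes stood apart in the glucose oxidase library, where 841 of 2110 were below control past the limit, compared with 52 in the library with Et2HOBA. All 10 genes are protein-coding, so shares among protein-coding genes are given beside those of all genes. Of 8 endothelial markers all were listed, with summed normalized counts of 294138 (control), 192206 (glucose oxidase) and 184516 (with Et2HOBA). They did not move alike: 3 were lower past the limit in each treated library and 0 higher. The background share lower past it was 8.6% of all genes after glucose oxidase and 8.04% with Et2HOBA. Among protein-coding genes it was 4.76% and 9.3%. The log2 ratios of the endothelial markers to control ran from -1.14 to 0.33 after glucose oxidase, with 1 above 0. With Et2HOBA they ran from -2.01 to 0.55, with 2 above 0. Of the 18 markers of smooth muscle, fibroblasts, leukocytes and epithelium, 9 were not among the listed genes, including Ptprc, Adgre1, Dcn, Lum and Epcam. None of the other 9 was at 0. The listed smooth muscle markers Acta2, Tagln, Myh11 and Des summed to normalized counts of 42.6, 73.5 and 95.3. The summed normalized counts of Pdgfra and Col1a1, the listed fibroblast markers, were 131, 1404 and 2738. Pdgfra went from 107 to 1325 and 2821 reads, while Col1a1 had 28, 30 and 23. The normalized counts of Cd68, Lyz2 and Csf1r, the listed leukocyte markers, summed to 8146, 17770 and 26858. Cd68 had 8215, 17067 and 27799 reads, whereas Lyz2 was lower past the limit in both treated libraries, with 186, 76 and 86 reads, and Csf1r had 6, 12 and 10. The part of these markers in the differences below was not tested. In bulk RNA, fewer cells of a type and less RNA per cell cannot be told apart.

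The 10 genes did not move as 1 group. Gadd45a, Gdf15 and Mdm2 were higher than control past the limit in both treated libraries. Sesn1 and Btg2 were lower in both, but past the limit only with Et2HOBA. Trp53, Cdkn1a, Ccng1, Phlda3 and Trp53inp1 stayed within the limit in both. After glucose oxidase 3 of 10 genes were past the limit, all higher, where 12.7% of all genes were past it in either direction and 4.07% were higher. With Et2HOBA added 5 of 10 were past it, 3 higher and 2 lower, where the background was 14.7% in either direction, 6.66% higher and 8.04% lower. Among protein-coding genes the background was 9.3% after glucose oxidase (4.53% higher and 4.76% lower) and 16.6% with Et2HOBA (7.33% higher and 9.3% lower). The 10 genes had median log2 ratios of 0.19 with glucose oxidase alone and 0.01 with the combination, and all genes had -0.01 and 0.00. Both comparisons use the same control library.

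**Figure D1:**
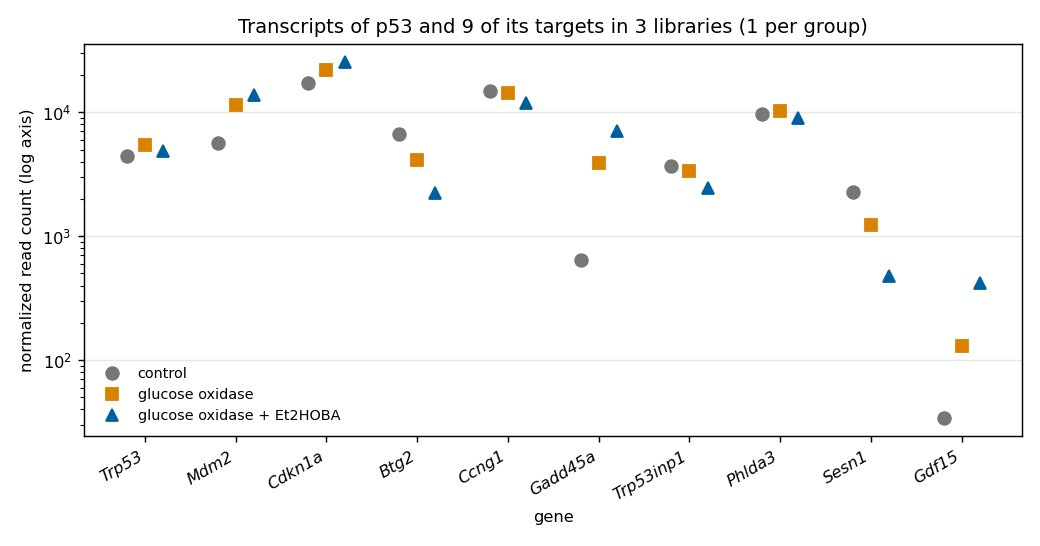
Normalized read count (log axis) of the 10 genes in each of the 3 libraries, 1 point per library. Gadd45a and Gdf15 climb across the libraries from 646 to 7072 and from 33.9 to 421, Sesn1 and Btg2 descend, and the counts of Phlda3 lie between 9007 and 10221. Points should be compared within a gene, since transcript lengths differ.

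The regulators of the pathway come first. Trp53 (ENSMUSG00000059552.13, chromosome 11, 69580359 to 69591873, plus strand) encodes p53 itself. Control cells gave 4555 reads, glucose oxidase alone 5266 and the combination 5015. The glucose oxidase library was highest, at 1.24-fold control (interval 1.19 to 1.29), and the other treated library was at 1.09-fold (1.05 to 1.14). The second of these log2 ratios, 0.13, became -0.02 when libraries were scaled by their totals, which moved the median of all genes in that comparison to -0.13. Among protein-coding genes 23.6% had a higher ratio than Trp53 after glucose oxidase and 40.9% with Et2HOBA.

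Mdm2 (ENSMUSG00000020184.15, chromosome 10, 117688875 to 117710758, minus strand) encodes the ligase that removes p53. Its reads numbered 5858 in the control library, 11043 with the oxidant and 14297 with the oxidant plus Et2HOBA. Both treated libraries were above control, at 2.02-fold (1.95 to 2.08) and 2.43-fold (2.35 to 2.5). The first ratio, 1.01 in log2 units, sits at the limit and was 0.95 with total-count scaling and 0.99 in the authors' deposited table. Its log2 ratio exceeded those of 95.5% and 95.1% of protein-coding genes.

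Among the genes of cell-cycle arrest, Cdkn1a (ENSMUSG00000023067.14, chromosome 17, 29090976 to 29100727, plus strand) encodes p21, the inhibitor of cyclin-dependent kinases that carries out much of the p53 arrest. Control cells gave 17707 reads, glucose oxidase alone 21162 and the combination 26493. The ratios to control were 1.28-fold (1.25 to 1.30) and 1.49-fold (1.46 to 1.52), both under the limit. Cdkn1a carries the 20-base site shown first above and was already abundant in control cells, at 139 RPKM (reads scaled to exon length and library total). Of the 50-base stretches in its longest transcript 10.5% are shared with AC167363.2, a gene on the opposite strand.

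Btg2 (ENSMUSG00000020423.6, chromosome 1, 134075170 to 134079120, minus strand), an antiproliferative regulator of transcription and mRNA decay, moved the other way. Its reads were 6843 for control, 3967 for glucose oxidase alone and 2312 for the combination. It was 1.61-fold lower (1.55 to 1.68) after glucose oxidase and 2.98-fold lower (2.84 to 3.12) with Et2HOBA, and only the second difference was past the limit. With Et2HOBA 4.39% of protein-coding genes had a lower ratio.

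Ccng1 (ENSMUSG00000020326.7, chromosome 11, 40748552 to 40755311, minus strand) encodes cyclin G1, which takes part in the MDM2 feedback. It had 15195, 13773 and 12331 reads in the same order of libraries. After glucose oxidase it was at 0.969 of control (0.947 to 0.992) and with Et2HOBA at 0.806 (0.787 to 0.826). Thus the other gene with a 20-base site lay slightly below control while Cdkn1a lay above it.

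Gadd45a (ENSMUSG00000036390.8, chromosome 6, 67035096 to 67037457, minus strand) binds PCNA and p21 and takes part in growth arrest and DNA repair. Reads numbered 667 in the control library, 3761 with the oxidant and 7345 with the combination. The level was 6.03-fold control (5.55 to 6.55) after glucose oxidase and 10.9-fold (10.1 to 11.9) with Et2HOBA. Only 0.482% and 0.369% of protein-coding genes had a higher log2 ratio. Of the 50-base stretches in its longest transcript 16.1% are shared with E230016M11Rik, a gene on the opposite strand, which had 24, 31 and 30 reads.

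The genes tied to cell death and survival signalling come next. Trp53inp1 (ENSMUSG00000028211.11, chromosome 4, 11156431 to 11174379, plus strand), a nuclear and autophagy protein that promotes p53-dependent death, had 3787 control reads, 3229 with the oxidant alone and 2533 with the combination. It was 1.10-fold lower (1.05 to 1.15) and then 1.5-fold lower (1.43 to 1.58) than control. Phlda3 (ENSMUSG00000041801.5, chromosome 1, 135766119 to 135769136, plus strand), a repressor of AKT signalling, had 10049, 9867 and 9355 reads. Its ratios to control were 1.05 (1.02 to 1.08) and 0.925 (0.899 to 0.952), so the treated libraries lay on opposite sides of control. Neither gene was past the limit in any comparison.

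Of the oxidant-defence and secreted targets 1 was lower and 1 higher than control in both treated libraries. Sesn1 (ENSMUSG00000038332.13, chromosome 10, 41809935 to 41908424, plus strand) encodes sestrin 1, which restrains mTORC1 and supports peroxiredoxin function. Control cells gave 2328 reads, the oxidant alone 1190 and the combination 495. It was 1.83-fold lower (1.71 to 1.96) after glucose oxidase, within the limit, and 4.73-fold lower (4.29 to 5.23) with Et2HOBA. In that second comparison 2.21% of protein-coding genes had a lower ratio.

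Gdf15 (ENSMUSG00000038508.7, chromosome 8, 70629393 to 70632456, minus strand) encodes a secreted stress cytokine of the TGF-beta superfamily. It was the scarcest of the 10 in control, with 35 reads, followed by 125 for glucose oxidase alone and 437 for the combination. The treated libraries stood at 3.82-fold (2.61 to 5.72) and 12.4-fold (8.78 to 18.0) of control. The width of these intervals comes from the low control count. In the authors' deposited table, whose transformation shrinks low counts, the log2 differences were 0.73 and 2.44, so the first is under the limit there.

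**Figure D2:**
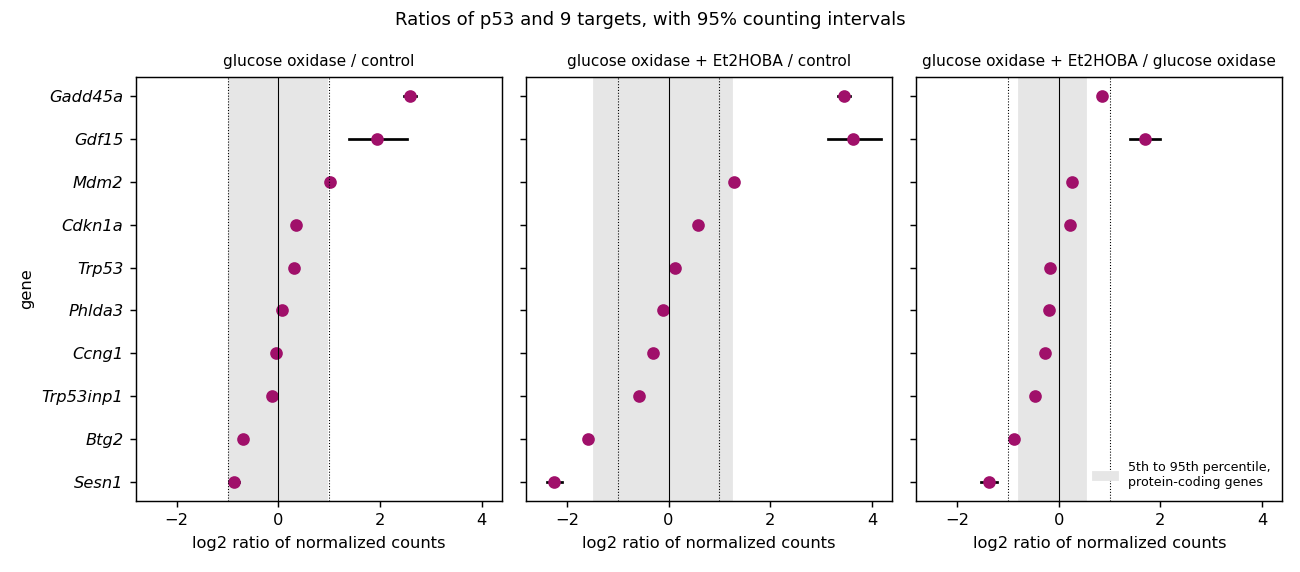
Log2 ratio of normalized counts for each of the 10 genes in the 3 pairings of libraries, with exact 95% counting intervals as bars and dotted lines at the limit of 1. Grey bands span the 5th to the 95th percentile of protein-coding genes, computed with 10 added to each normalized count; Gadd45a, Gdf15 and Mdm2 lie above the band in both comparisons with control, and Sesn1 and Btg2 lie below it in the comparison of the combination with control but not in that of glucose oxidase alone.

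The library with glucose oxidase plus Et2HOBA was then compared with that of glucose oxidase alone. The labels give exposures of 30 min and 24 h for the 2 agents, without their order or the harvest time. With 1 library each, scavenging by Et2HOBA cannot be told apart from other differences between these libraries. Gdf15 was higher and Sesn1 lower past the limit, 2 of 10 genes, where the background was 8.55% of all genes (6.39% higher and 2.15% lower) and 3.32% of protein-coding genes (0.971% higher and 2.35% lower), so the larger share was higher over all genes and lower over protein-coding genes. Gdf15 was 3.25-fold higher (2.66 to 4.0), and 0.196% of protein-coding genes had a higher ratio. Sesn1 was 2.59-fold lower (2.33 to 2.88), and 0.64% of protein-coding genes had a lower ratio. Within the limit, Gadd45a was 1.82-fold higher (1.75 to 1.89) and Btg2 was 1.85-fold lower (1.75 to 1.94). Mdm2 was at 1.20-fold (1.17 to 1.23), Cdkn1a at 1.16-fold (1.14 to 1.19) and Ccng1 at 0.832 (0.812 to 0.853) of the glucose oxidase level. The remaining ratios were 0.729 for Trp53inp1, 0.881 for Phlda3 and 0.885 for Trp53.

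Levels of different genes can be compared only per length. In RPKM, control cells had Phlda3 at 179, Cdkn1a at 139, Ccng1 at 120 and Btg2 at 69.4. Mdm2 (32.0) and Trp53 (31.3) followed and could not be ordered within counting error, nor could Trp53inp1 (16.26) and Sesn1 (16.25). Gadd45a was ninth at 10.5 and Gdf15 lowest at 0.525. After glucose oxidase Gadd45a stood at 60.9, beside Mdm2 at 62.1 with overlapping intervals. With Et2HOBA Cdkn1a was highest at 185, Gadd45a was the third at 104 and Sesn1 was lowest at 3.09, under Gdf15 at 5.87. Ranked by RPKM value alone, Gadd45a moved from 9 in control to 3 with the combination, Btg2 from 4 to 7 and Sesn1 from 8 to 10. Each of the other genes kept its rank or moved by 1. The control ranks of Sesn1 and Trp53inp1, and those of Mdm2 and Trp53, are not settled within counting error.

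Several of the genes belong to families, and 14 of 16 paralogs were listed; Trp63 and Trp73, the relatives of Trp53, were not. The sestrins split: Sesn2, which is also a stress-induced gene, had 2147, 3417 and 4015 reads and was 1.70-fold (1.61 to 1.80) and 1.86-fold (1.76 to 1.96) above control. Sesn3 followed Sesn1, with 2301, 1367 and 798 reads, and was 2.90-fold lower (2.68 to 3.15) with Et2HOBA. In the GADD45 family Gadd45b had 367, 498 and 918 reads, at 2.49-fold control (2.20 to 2.81) with Et2HOBA, whereas Gadd45g had 688, 522 and 353. The ratios of Gadd45b and Gadd45g were smaller in size than those of Gadd45a in both comparisons.

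Mdm4, the partner of MDM2 that masks the p53 activation domain, had 3597, 5518 and 5890 reads, at 1.64-fold (1.57 to 1.71) and 1.63-fold (1.56 to 1.70) of control. Of its 50-base stretches 15.5% are shared with another gene. Cdkn1b, which encodes p27, had log2 ratios of 0.21 and 0.28, smaller than those of Cdkn1a at 0.35 and 0.57. Cdkn1c, which encodes p57, had 168, 52 and 59 reads and was 3.02-fold lower (2.20 to 4.21) after glucose oxidase. Of its stretches 26.6% are shared with Gm44732, a gene on the opposite strand. Phlda1 had 165, 307 and 623 reads, at 3.75-fold control (3.16 to 4.48) with Et2HOBA, and 33.2% of its stretches are shared with another gene. Phlda2 had 5, 1 and 6 reads, too few to place. Btg3 was at 2.26-fold control (1.90 to 2.70) with Et2HOBA, with 30.5% of its stretches shared, while Btg1 had log2 ratios of -0.35 and -0.36. The ratios of Ccng2 were -0.09 and -0.12, of Trp53inp2 0.04 and 0.14, and of Gdf11 -0.19 and -0.78.

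**Figure D3:**
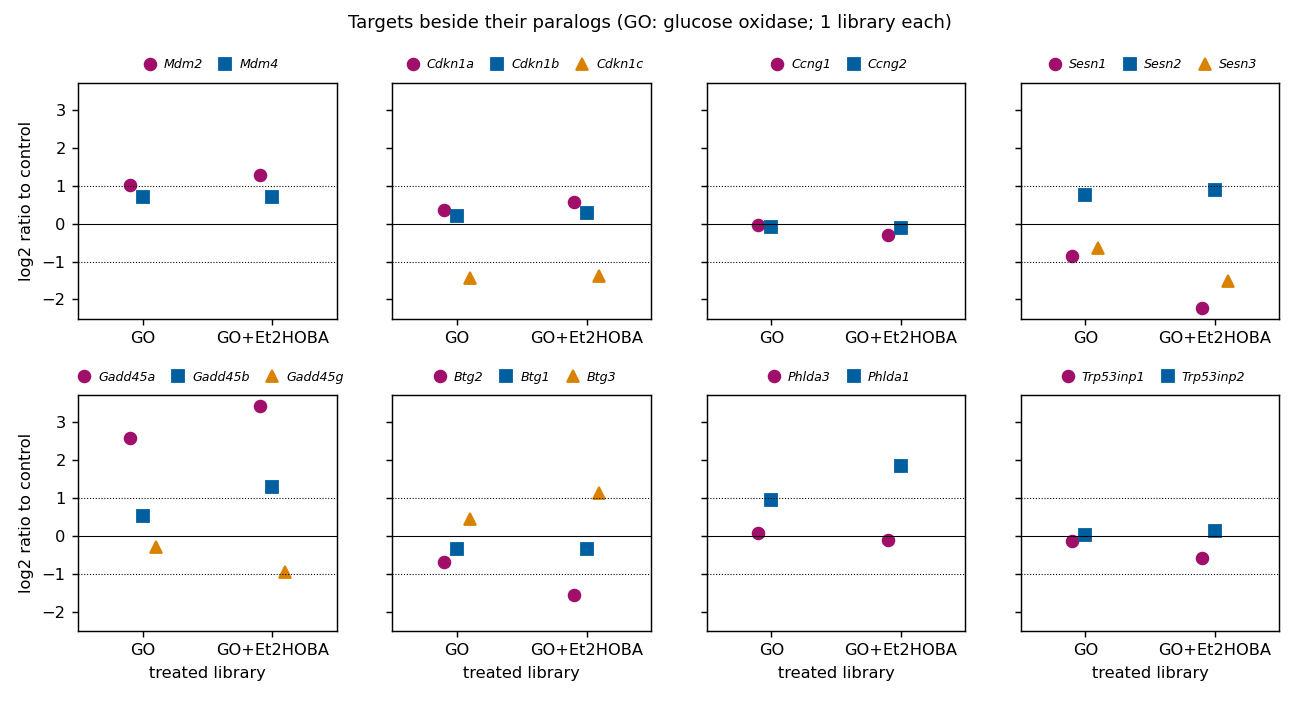
Log2 ratio to control (normalized count plus 10) of 8 of the genes and their paralogs, for the glucose oxidase library and the library with Et2HOBA; each point is 1 gene in 1 library. Sesn2 lies above 0 while Sesn1 and Sesn3 lie below it, and Gadd45a lies above Gadd45b and Gadd45g.

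A wider set of p53 regulators and targets was read beside the 10 genes; 40 of 43 were listed, and Pmaip1, Perp and Sco2 were not. After glucose oxidase 1 of the 40 was past the limit, the lower Ckap2, and with Et2HOBA 1 was higher and 5 lower, or 2.5% and 15%. The background was 12.7% and 14.7% of all genes, and 9.3% and 16.6% of protein-coding genes, to which all 40 belong. Its median log2 ratios were 0.19 for glucose oxidase alone and 0.12 for the combination.

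Among 12 regulators of p53 only Chek1, the checkpoint kinase of replication stress, was past the limit. It had 230, 108 and 50 reads and was 4.63-fold lower (3.40 to 6.42) than control with Et2HOBA. Of 9 listed death genes only Fas, the death receptor, was past it, with 2045, 1369 and 755 reads, or 2.73-fold lower (2.51 to 2.97) with Et2HOBA. The log2 ratios of Bax were 0.01 and 0.04 and those of Bbc3, which encodes PUMA, were 0.03 and 0.23. None of the 5 repair and nucleotide-supply targets was past the limit. They are Xpc, Ddb2, Polk, Rrm2b and Ercc5, with ratios from 0.02 to 0.82 after glucose oxidase and from -0.20 to 0.74 with Et2HOBA. Both highest ratios are those of Ddb2, which had 112, 193 and 195 reads. Of its 50-base stretches 22.7% are shared with Acp2, a gene on the opposite strand.

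Gls2, a mitochondrial glutaminase, was the only metabolic target past the limit, with 179, 105 and 69 reads, 2.61-fold lower (1.97 to 3.50) with Et2HOBA. The kinase Plk3, the 1 gene of these 40 higher past the limit, had 3808, 5524 and 9146 reads and was at 2.39-fold control (2.30 to 2.48) with Et2HOBA. Gtse1 and Ckap2, both of which are also expressed with the cell cycle, were 2.51-fold (2.33 to 2.71) and 2.65-fold (2.41 to 2.91) lower with Et2HOBA.

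Genes that p53 is known to lower indirectly, through p21 and the DREAM repressor complex, were read as a separate list of 14. After glucose oxidase 12 of 14 were lower past the limit and none was higher, beside 8.6% of all genes and 4.76% of protein-coding genes lower. With Et2HOBA 13 of 14 were lower, beside 8.04% of all genes and 9.3% of protein-coding genes. Their median log2 ratios were -1.66 and -2.60. Plk1, a mitotic kinase, had 1370, 281 and 110 reads and was 4.56-fold (4.01 to 5.20) and 12.5-fold (10.3 to 15.4) lower than control. Ccna2, which encodes cyclin A2, had 1723, 339 and 171 reads, Birc5 (survivin) 1025, 261 and 120, and the proliferation marker Mki67 5338, 1181 and 675. E2f1, with log2 ratios of -0.03 and -0.12, was the 1 gene of the list within the limit in both comparisons. These genes are also lowered whenever cells stop dividing for other reasons, and the part of p53 in their levels was not tested.

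**Figure D4:**
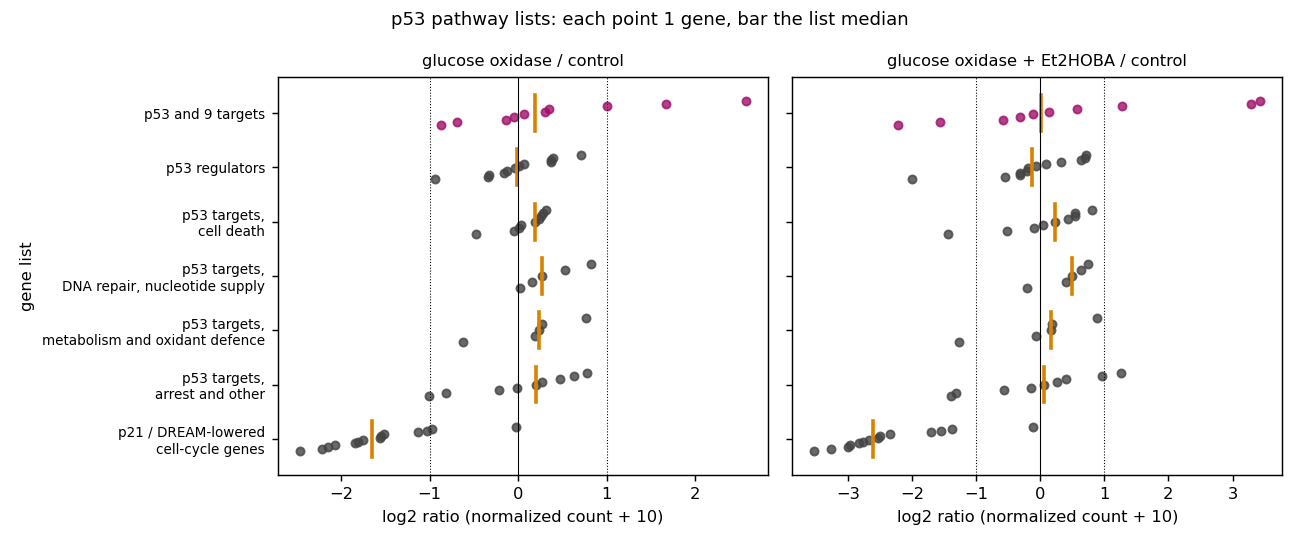
Log2 ratio to control (normalized count plus 10) of every listed gene in the p53 gene set, in 5 lists of p53 regulators and targets and in the list lowered through p21 and DREAM; each point is 1 gene, the orange bar is the list median and dotted lines mark the limit of 1. The 10 genes spread from -2.22 to 3.43 with Et2HOBA, while 13 of 14 genes of the last list lie below -1 there.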

How the data were processed

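Stranded libraries were made from polyadenylated RNA, per the labels' protocols. STAR, featureCounts and the build mm10 are named in the submitters' processing notes, and their settings, the annotation and whether reads were counted by strand are not given in the sources used here. The authors deposited raw read counts for control and glucose oxidase plus Et2HOBA, per the file headers. The authors deposited log2 differences for that pair and, without counts, for glucose oxidase against control. The latter were inverted with the control counts by treating the deposited scale as the asinh of the square root of each count times a constant fitted per library, in log2 units. Of 18258 genes with a unique symbol in both tables, 100% then had reads less than 0.01 from a whole number (largest distance 0.000138), against 3.3% when control counts were raised by 1. The remaining 29 genes, 19 of them with symbols turned into dates, were placed by whole reads. On data simulated with the assumed scale for the comparison of glucose oxidase with control, the inversion returned 100% of the reads of 17515 genes exactly. Such data check the fitting of the constants and cannot show that the deposited scale has this form. The inversion also returned the deposited counts of the other pair.

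Median-of-ratios size factors were 1.03 (control), 0.965 (glucose oxidase) and 1.04 (both agents). A pseudocount of 10 and a limit of 1 log2 unit were used, and fold values of single genes have no pseudocount. Exon lengths, overlaps and shared 50-base stretches are from GENCODE M21, where 17878 gene IDs had the same version and position as deposited. Python 3.11.15, numpy 2.4.6, pandas 2.3.3 and scipy 1.17.1 were used. Genes named were the 10, their paralogs and, from each other list, at most 4 genes past the limit against control with a mean normalized count of 50 or more. Bax, Bbc3, E2f1 and the repair targets were named outside that rule. The genes, lists and limit were chosen with earlier results of these data known. One further gene of the wider list is not reported here. It was left out after its values were seen, but for a reason unrelated to them, and the counts and shares of that list leave it out.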

Additional observations from a re-analysis of the deposited data

How the results depend on the processing

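With 1 library per group nothing here measures biological spread, and leaving out a library was not possible. No paired analysis was possible because each group holds 1 library. Of 110 recomputed log2 ratios of the 10 genes, 23 were counted as moved and 87 were not. A moved ratio fell outside its counting interval and shifted by more than the distance from the interval's middle to its ends. No ratio past the limit changed sign. Scaling by library totals kept 5 of the 10 genes past the limit with Et2HOBA against control, and left 2 of 3 after glucose oxidase, because Mdm2 fell below it. The same scaling changed the split of all genes with Et2HOBA against control from 1217 higher and 1471 lower to 988 and 1837. A filter at a mean normalized count of 10 left the counts of p53 genes as they were, as did size factors from only the 2 libraries compared, which were chosen after seeing the data.

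After glucose oxidase, 5 of the 10 genes were past a limit of 0.5, 1 past a limit of 2, and 1 past 1 in the units the authors deposited. For the 40 genes of the wider p53 set these counts were 10, 0 and 0, with 2 at a pseudocount of 1. For all 18287 genes they were 6175, 526 and 734, with 4243 at a pseudocount of 1. Of the 13285 protein-coding genes alone, a restriction chosen after seeing the data, 1235 were past 1. The counts below have the same denominators. With Et2HOBA against control, 3 of the 10 genes were past a limit of 2. The wider set had 19 genes past 0.5 and 1 past 2. All genes gave 7332 and 695 at those limits, 4494 at a pseudocount of 1 and 1768 on the deposited scale. Between the treated libraries, 4 and 0 of the 10 genes were past 0.5 and 2, the wider set had 9 and 0, with 2 past 1 under total-count scaling, and all genes 4670 and 391, with 3311 at a pseudocount of 1 and 441 protein-coding. The deposited table of that pair holds none of the 10 genes, so its scale was not run. Depth limits Gdf15 most, with 35 control reads.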

Other observations

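Some further genes of the wider p53 set stayed within the limit, and they were picked after their values were seen. Plk2, a polo-like kinase, had 16351, 18443 and 32061 reads for control, the oxidant alone and the combination, with log2 ratios to control of 0.27 and 0.96. Tnfrsf10b, which encodes the mouse TRAIL death receptor, had 2917, 3276 and 5121 reads, with ratios of 0.26 and 0.80. Pidd1, a death-domain protein that activates caspase-2 complexes, went from 0.19 after glucose oxidase to -0.52 with Et2HOBA. Cdkn2a, whose locus encodes the MDM2 inhibitor ARF and the kinase inhibitor p16, had 1000, 1214 and 1575 reads, and gene-level counts cannot separate its products. Between the treated libraries the log2 ratios of Plk2, Tnfrsf10b, Pidd1 and Cdkn2a were 0.69, 0.538, -0.71 and 0.27. The 5th to 95th percentile of protein-coding genes there ran from -0.77 to 0.541, and only Plk2 lay outside it.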
